A study of Homo sapiens with 12 samples.

Results

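The 9 genes described here are the NRF2 module of detoxification and NADPH supply: NFE2L2, which encodes the transcription factor NRF2, its inhibitor KEAP1, the detoxification genes NQO1, EPHX1 and HMOX1, and the NADPH-supply genes ME1, PGD, TALDO1 and TKT. They were chosen by name, and every probe set annotated to them was taken. Of the 54675 probe sets of the array, 20 carry these names, 19 of them with that gene alone. The remaining 1 is shared by NFE2L2 and another gene and was left out. All 19 passed the filter on low signal. All samples are A549 cells, a human lung adenocarcinoma line, transfected with siRNA at 50 nM and lysed 3 days later. The groups are cells with an siRNA against FAM60A (current symbol SINHCAF), their own controls with a non-targeting siRNA, cells with an siRNA against SDS3 (current symbol SUDS3), and another set of non-targeting controls for these, with 3 arrays each and 12 in all. Both targets are subunits of the SIN3-HDAC co-repressor, which brings histone deacetylases to chromatin. The protocol names a single FAM60A siRNA and a single non-targeting siRNA, and no untransfected cells were analysed here. The comparisons give the change of each gene under either knockdown against its own controls, and the difference between the knockdowns.

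NRF2 is kept low in unstressed cells by KEAP1, an adaptor that presents it to a CUL3 ubiquitin ligase. When KEAP1 is modified by electrophiles, or carries a mutation as it does in A549 cells, NRF2 accumulates, pairs with small MAF proteins and binds antioxidant response elements. Its targets conjugate, reduce or export foreign compounds, make glutathione, degrade haem and feed the enzymes that regenerate NADPH. In lung adenocarcinoma the pathway is often switched on by mutation.

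To place the genes on the genome, RefSeq promoter windows of GRCh38.p14, 300 bases each from 250 before to 50 after an annotated start, were searched for the antioxidant response element core TGACNNNGC on both strands. Of the 9 genes, 8 matched the table, with 12 windows, and HMOX1 did not. The core was present in 4 windows, of KEAP1, EPHX1, ME1 and PGD, against 13.3% of all 35116 windows. The bases before those starts are shown because they hold the letters searched for in genes whose values follow. They run 5′ to 3′ on the strand of the gene, with each match in capitals.
KEAP1: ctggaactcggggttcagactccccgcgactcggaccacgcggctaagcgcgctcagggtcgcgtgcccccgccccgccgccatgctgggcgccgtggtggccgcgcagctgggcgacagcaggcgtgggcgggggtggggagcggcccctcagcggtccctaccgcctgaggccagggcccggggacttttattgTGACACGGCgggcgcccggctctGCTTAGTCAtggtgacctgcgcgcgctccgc
EPHX1: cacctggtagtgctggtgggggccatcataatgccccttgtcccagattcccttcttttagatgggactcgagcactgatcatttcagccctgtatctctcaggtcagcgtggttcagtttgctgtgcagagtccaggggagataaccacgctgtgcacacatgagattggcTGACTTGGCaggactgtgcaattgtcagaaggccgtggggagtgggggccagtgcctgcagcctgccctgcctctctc
ME1: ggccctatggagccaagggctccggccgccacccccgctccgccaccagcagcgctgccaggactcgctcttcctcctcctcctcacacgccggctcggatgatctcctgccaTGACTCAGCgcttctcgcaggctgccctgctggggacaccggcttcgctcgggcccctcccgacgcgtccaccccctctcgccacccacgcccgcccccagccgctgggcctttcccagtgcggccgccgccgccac
PGD: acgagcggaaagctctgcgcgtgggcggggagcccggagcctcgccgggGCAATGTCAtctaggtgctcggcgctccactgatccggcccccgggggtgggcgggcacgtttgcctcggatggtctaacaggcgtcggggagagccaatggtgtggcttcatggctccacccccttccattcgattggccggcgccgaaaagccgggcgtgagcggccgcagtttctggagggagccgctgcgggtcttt
The KEAP1 stretch is chr19:10502772-10503021 on the minus strand, with matches that begin 54 and 31 bases before the start. The EPHX1 stretch is chr1:225825104-225825353 on the plus strand, with a match that begins 78 bases before the start. The ME1 stretch is chr6:83431052-83431301 on the minus strand, with a match that begins 137 bases before the start, and a second match, GCACCGTCA, begins 11 bases after it. The PGD stretch is chr1:10398814-10399063 on the plus strand, with a match that begins 201 bases before the start. A match describes letters only, and the windows without one belong to NFE2L2, NQO1, TALDO1, TKT and further starts of KEAP1 and EPHX1.

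Signal is given as log2 of the deposited intensity, and changes are knockdown minus control on that scale. Median signal was 186.01 to 192.6 on the FAM60A experiment's arrays and 96.8 to 98.3 on those of the SDS3 experiment, so levels are compared only within an experiment. The targets were lowered, with SINHCAF at 15.5% of control signal under its siRNA and SUDS3 at 33.4% of control signal under its own. Of the 5 epithelial markers, the keratins KRT8 and KRT18 lay at 13.85 or above on every array and KRT19 at 9.68 or above. EPCAM averaged 8.72 on the FAM60A siRNA arrays against 9.94 on their controls, and 8.77 on the SDS3 siRNA arrays against 9.35 on theirs. CDH1 averaged 10.07 against 10.56 and 7.07 against 8.59 in the same order, so both were lower on every knockdown array than on its controls. KRT19 averaged 10.72 against 10.22 and 9.71 against 10.06 in that order. It lay above all controls on the FAM60A siRNA arrays and below all controls on the SDS3 siRNA arrays. KRT18 averaged 14.90 against 15.05 and 14.70 against 14.95, and KRT8 14.51 against 14.54 and 13.87 against 14.22. The part of these markers in the results was not tested. Of the blood markers, PTPRC reached log2 5 (the filter on low signal) on 1 of 12 arrays, while CD3E (7.20 to 7.87) and CD14 (7.07 to 8.67) reached it on all 12. The endothelial markers PECAM1 (7.43 to 8.69) and VWF (6.60 to 8.01) reached it on all 12 and CDH5 on 6, and the 4 alveolar type II markers, SFTPB, SFTPC, SFTPD and NKX2-1, on all 12 at 6.07 to 8.79. The arrays give no detection calls, so none of these cell types was called present or absent. Per the growth protocol the wells were triplicates and no separate cultures are named, so each p-value reflects array-to-array spread that may be technical. In such bulk RNA, fewer expressing cells and less transcript per cell cannot be told apart.

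The deposited values compare each transcript with the bulk of the array. External poly-A control RNAs on the same arrays read 0.10 higher (log2) on the FAM60A siRNA arrays than on their controls and 0.32 higher on the SDS3 siRNA arrays (exact permutation p = 0.5 and 0.1, two-sided, where 0.1 is the smallest possible). Scaling to them lowers every change by those amounts, and the amount of RNA per cell was not measured. Changes below are relative to the bulk of the array, and those calls are named that are lost under this scaling.

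With FAM60A siRNA, KEAP1, EPHX1 and ME1 fell and HMOX1 rose, while the brightest probe sets of NFE2L2, NQO1, PGD, TALDO1 and TKT did not pass. Under the SDS3 knockdown the brightest probe sets of NFE2L2, KEAP1, NQO1, EPHX1, ME1 and PGD fell and that of HMOX1 rose. HMOX1, the inducible haem oxygenase, was the 1 gene of the 9 that passed as higher in either. Of the 19 probe sets, 7 were lower, 1 was higher and 11 did not pass under the FAM60A knockdown (limma, Benjamini-Hochberg adjusted p under 0.05), where 12.1% of all 48347 tested probe sets were lower and 14.7% higher. Under the SDS3 knockdown 10 were lower, 1 was higher and 8 did not pass, where 13.2% of all probe sets were lower and 11% higher. The median change of the 19 was -0.12 against -0.020 over all probe sets in the FAM60A comparison, and -0.22 against 0.0082 in the SDS3 comparison. Probe sets of 1 gene share their RNA, so they do not count as separate evidence.

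Counted by the brightest probe set of each gene, 3 genes were lower, 1 was higher and 5 did not pass under the FAM60A knockdown, where 15.2% of 18621 tested genes were lower and 17.4% higher. Under the SDS3 knockdown 6 were lower, 1 was higher and 2 did not pass, where 16.6% of genes were lower and 13.5% higher. In the SDS3 experiment the groups of arrays did not overlap for any of the 9, with 8 below and 1 above the controls, where 25.2% of all genes lay below and 22.4% above. In the FAM60A experiment 5 lay below, 1 lay above and 3 overlapped, where 24.4% of all genes lay below and 23.7% above.

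**Figure D1:**
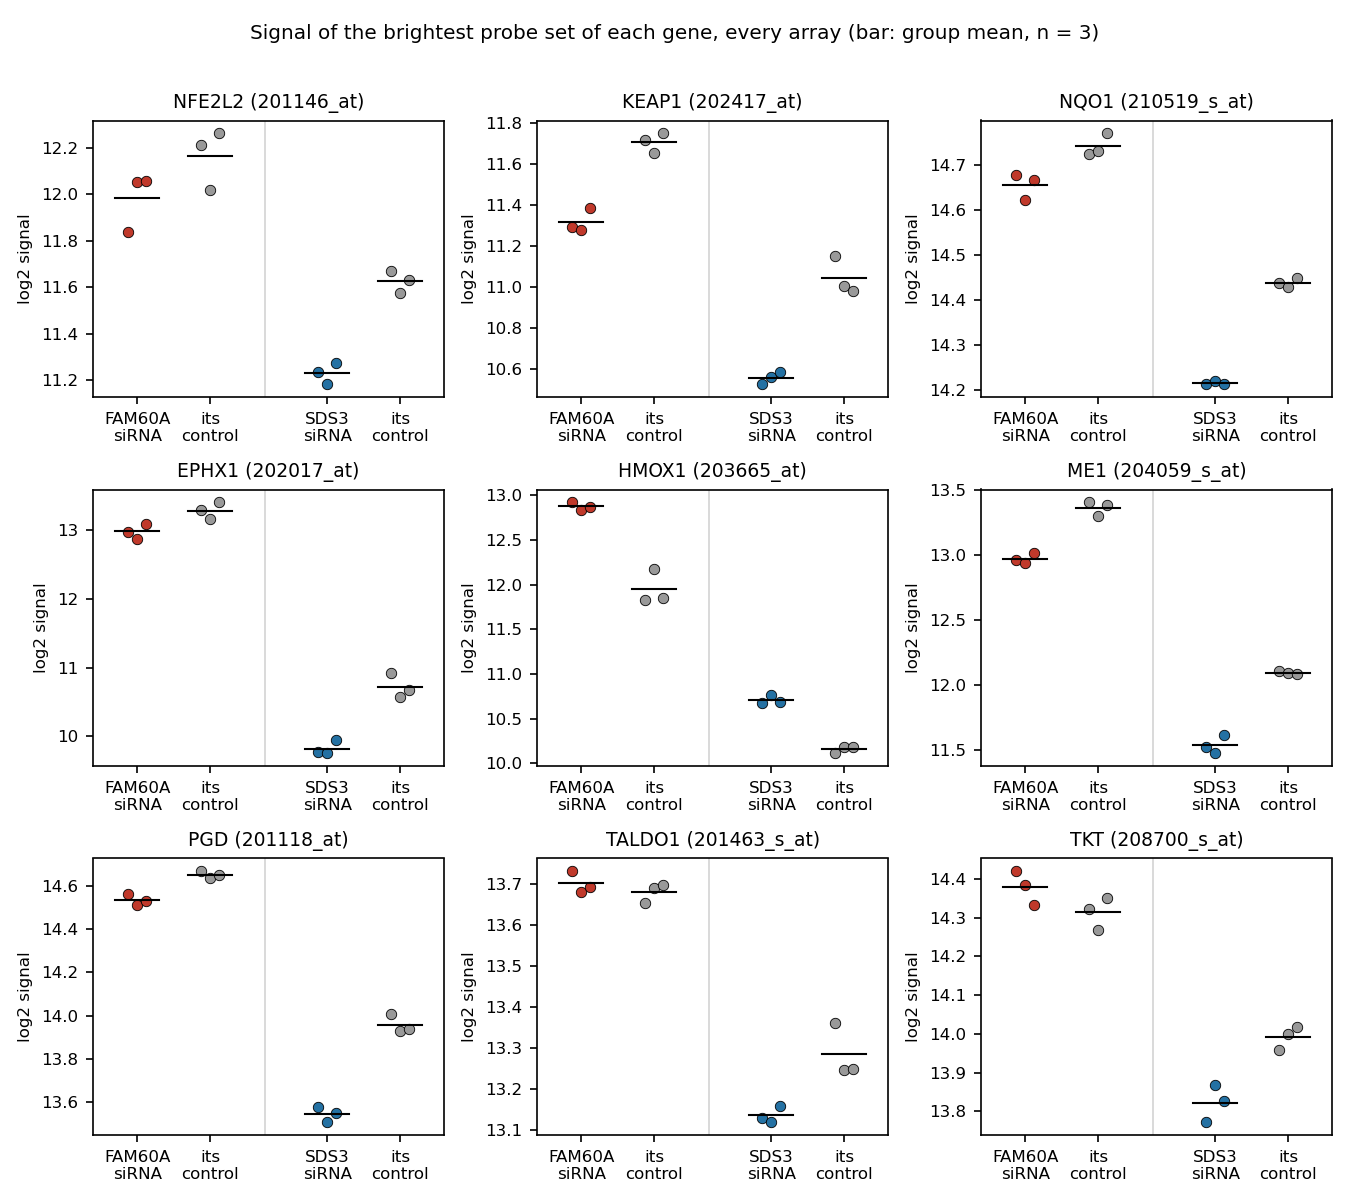
Signal (log2) of the brightest probe set of each of the 9 genes on every array, with knockdown points in colour left of their grey controls and a bar at each group mean (n = 3). HMOX1 points of both knockdowns sit above all their controls, and the SDS3 siRNA points of the other 8 genes sit below theirs.

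NFE2L2 encodes NRF2 itself. Its brightest probe set, 201146_at, read 11.23, 11.18 and 11.27 on the SDS3 siRNA arrays, against 11.67, 11.58 and 11.63 on their control arrays. Every SDS3 siRNA array lay below every control, and the signal fell to 76% of control (log2 change -0.40, SE 0.0583, adjusted p = 0.0014). In the FAM60A experiment it read 11.84, 12.05 and 12.05 on the FAM60A siRNA arrays, against 12.21, 12.02 and 12.26 on their control arrays. These groups overlap, and the change of -0.18 did not pass (adjusted p = 0.153). The dimmer probe sets 1567013_at and 1567015_at changed by -0.0092 and 0.031 under the SDS3 knockdown (adjusted p = 0.955 and 0.89), so the fall was seen with 1 probe set of 3. These dimmer sets averaged only 6.24 and 5.96 on the SDS3 siRNA arrays. Changes are narrowed at the dim end, so their lack of change does not decide whether the transcript fell. Under the FAM60A knockdown 1567015_at fell by 0.24 (adjusted p = 0.0354), a call that was lost without any 1 of 4 arrays (control replicates 2 and 3, knockdown replicates 1 and 2), with adjusted p of 0.0723 to 0.126, and under poly-A scaling (adjusted p = 0.0921, range over its alternatives 0.0245 to 0.257). That call was also lost with scaling to hybridisation spike-ins (adjusted p = 0.257) and with all 12 arrays in 1 fit (adjusted p = 0.107).

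KEAP1, the adaptor that marks NRF2 for degradation, fell in both knockdowns. Its probe set 202417_at read 11.29, 11.28 and 11.38 on the FAM60A siRNA arrays, against 11.71, 11.65 and 11.75 on their control arrays. It read 10.52, 10.56 and 10.59 on the SDS3 siRNA arrays, against 11.15, 11.00 and 10.98 on their control arrays. In both experiments all knockdown arrays lay below all controls. The signal fell to 76.4% of control under the FAM60A knockdown (log2 change -0.39, SE 0.061, adjusted p = 0.000976) and to 71.3% under the SDS3 knockdown (log2 change -0.49, SE 0.0644, adjusted p = 0.000781). The difference between the knockdowns was -0.10, with a 95% interval of -0.28 to 0.085 and an adjusted p of 0.486. Thus under the SDS3 knockdown the KEAP1 probe set was lower, and so was the brightest of the 3 NFE2L2 probe sets, but not the dimmer ones.

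Of 19 further NRF2 regulators and partners tested, 2 were higher and 4 lower under the FAM60A knockdown, and 4 higher and 2 lower under the SDS3 knockdown. Over all tested genes 17.4% were higher and 15.2% lower under the FAM60A knockdown, and 13.5% higher and 16.6% lower under the SDS3 knockdown. The 2 higher under the FAM60A knockdown became 1 without control replicate 1 or 3 or knockdown replicate 1, and 0 without knockdown replicate 3 or under poly-A scaling, and the 4 lower became 1 with spike-in scaling. The 2 lower under the SDS3 knockdown became 1 without control replicate 2 or knockdown replicate 2, 4 without knockdown replicate 3 and 5 with spike-in scaling, and the 4 higher became 2 with spike-in scaling. In the FAM60A comparison 6.59% of all genes were higher under poly-A scaling and 8.15% lower with spike-in scaling. In the SDS3 comparison 7.74% were higher and 19.7% lower with spike-in scaling. The list's median change was -0.091 and -0.022, against -0.023 and 0.0064 over all genes, and a gene may stand in more than 1 of the lists used here. SQSTM1, the autophagy receptor p62 that sequesters KEAP1, fell by 0.30 in both (adjusted p = 0.00365 and 0.0032). MAFG, a small MAF partner of NRF2, fell by 0.30 under the FAM60A knockdown (adjusted p = 0.00961), and RBX1, the RING subunit of the ligase, fell by 0.29 (adjusted p = 0.0128). With hybridisation spike-in scaling these FAM60A calls were lost (SQSTM1, adjusted p = 0.0944, range over its alternatives 2.92e-05 to 0.0944; MAFG, adjusted p = 0.1, range over its alternatives 0.00193 to 0.1; RBX1, adjusted p = 0.112, range over its alternatives 0.00123 to 0.112). MAFF, another small MAF, rose by 0.43 under the SDS3 knockdown (adjusted p = 0.000652), but its change was 0.11 under poly-A scaling (adjusted p = 0.516, range over its alternatives 2.25e-05 to 0.516). CREBBP, a histone acetyltransferase that acts as an NRF2 coactivator, rose by 0.30 there (adjusted p = 0.0208), and its change turned to -0.028 under that scaling (adjusted p = 0.87, range over its alternatives 0.00282 to 0.87). The CREBBP call was also lost without control replicate 2 or knockdown replicate 1 or 2 (adjusted p of 0.0739 to 0.0798). With spike-in scaling the CREBBP call was lost too (adjusted p = 0.174).

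NFE2L3, a relative of NRF2 in the same cap'n'collar family, passed in both knockdowns with opposite signs. It read 7.88, 7.77 and 7.71 on the FAM60A siRNA arrays, against 8.31, 8.18 and 8.21 on their control arrays. It read 8.45, 8.37 and 8.44 on the SDS3 siRNA arrays, against 7.53, 7.88 and 7.94 on their control arrays. The groups do not overlap in either experiment, with the FAM60A siRNA arrays below and the SDS3 siRNA arrays above their controls. The changes were -0.45 (SE 0.0671, adjusted p = 0.000751) and 0.64 (SE 0.104, adjusted p = 0.0025), and their difference was 1.08 (adjusted p = 7.01e-05). Under poly-A scaling the SDS3 change was 0.31 and did not pass (adjusted p = 0.0705, range over its alternatives 0.00011 to 0.0705). The other relative, NFE2L1, had changes of -0.088 and 0.041, neither of which passed.

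NQO1 encodes the quinone reductase whose transcript is a usual readout of NRF2 activity. It is among the brightest signals of the array: its probe set 210519_s_at lay only 0.651 to 0.948 (log2) under the highest value of each array. That probe set read 14.21, 14.22 and 14.21 on the SDS3 siRNA arrays, against 14.44, 14.43 and 14.45 on their control arrays. Every SDS3 siRNA array was lower than every control, and the signal fell to 85.7% of control (log2 change -0.22, SE 0.0521, adjusted p = 0.0142). In the FAM60A experiment it read 14.68, 14.62 and 14.67 on the FAM60A siRNA arrays, against 14.72, 14.73 and 14.77 on their control arrays, again without overlap. That change of -0.086 did not pass (adjusted p = 0.308).

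The other NQO1 probe sets gave larger falls under the SDS3 knockdown. The probe set 201467_s_at, 1.29 to 1.80 under the highest value of its array, read 13.37, 13.36 and 13.37 on the SDS3 siRNA arrays, against 13.75, 13.75 and 13.77 on their control arrays. Its signal fell to 76.5% of control (log2 change -0.39, SE 0.0522, adjusted p = 0.000874), and that of 201468_s_at fell to 83.4% (adjusted p = 0.00762). All 3 NQO1 probe sets thus passed in the same direction under the SDS3 knockdown. With FAM60A siRNA none of the 3 passed, with changes of -0.086, -0.14 and -0.11 and adjusted p of 0.308, 0.0862 and 0.251. Here 201467_s_at passed under 3 alternatives, with adjusted p of 0.0493 with a filter at log2 7, 0.0395 with all 12 arrays in 1 fit and 0.00523 with a robust variance trend.

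EPHX1 encodes microsomal epoxide hydrolase, which opens reactive epoxides to diols, and it had the largest fall of the 9 genes by brightest probe set under the SDS3 knockdown. Its probe set 202017_at read 9.76, 9.75 and 9.94 on the SDS3 siRNA arrays, against 10.92, 10.57 and 10.68 on their control arrays. The groups lie apart by more than the spread within either, and the signal fell to 53.4% of control (log2 change -0.91, SE 0.0985, adjusted p = 0.000282). In the FAM60A experiment it read 12.98, 12.88 and 13.10 on the FAM60A siRNA arrays, against 13.30, 13.16 and 13.41 on their control arrays. The FAM60A siRNA arrays were again all lower than their controls, at 81.1% of control (log2 change -0.30, SE 0.0821, adjusted p = 0.0207). That smaller call was lost when control replicate 1 or 3 or knockdown replicate 1 or 2 was left out (adjusted p of 0.0511 to 0.0801), and when arrays were scaled to hybridisation spike-ins (-0.24; adjusted p = 0.0872, range over its alternatives 0.00331 to 0.0872).

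HMOX1 encodes haem oxygenase 1, which breaks haem into biliverdin, carbon monoxide and iron. It answers to NRF2 and also to the haem-sensing repressor BACH1. Its probe set 203665_at read 12.93, 12.84 and 12.88 on the FAM60A siRNA arrays, against 11.83, 12.18 and 11.85 on their control arrays. All FAM60A siRNA arrays lay above all controls, and the signal was 1.90-fold higher (log2 change 0.93, SE 0.0907, adjusted p = 5.1e-05). In the SDS3 experiment it read 10.68, 10.76 and 10.69 on the SDS3 siRNA arrays, against 10.11, 10.18 and 10.19 on their control arrays. The groups again do not overlap, and the signal was 1.46-fold higher (log2 change 0.55, SE 0.0576, adjusted p = 0.000232). Under poly-A scaling the rise in the FAM60A experiment was 0.83 and passed, and that in the SDS3 experiment was 0.23 and did not (adjusted p = 0.177, range over its alternatives 1.87e-06 to 0.177).

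The 13 haem and iron genes tested did not share one direction with HMOX1. With FAM60A siRNA 2 were higher and 2 lower, and under the SDS3 knockdown 4 were higher and 5 lower, with median changes of -0.035 and -0.13, against -0.023 and 0.0064 over all genes. The FAM60A shares are near those of all genes (17.4% higher, 15.2% lower), and the SDS3 counts stand beside 13.5% higher and 16.6% lower. The 2 lower under the FAM60A knockdown became 1 without any 1 of 5 arrays (control replicates 1 to 3, knockdown replicates 2 and 3) and 0 with spike-in or poly-A scaling. With those scalings 8.15% and 10.4% of all genes were lower. Leaving out each array in turn gave 1 to 3. SLC11A2, the divalent metal transporter DMT1, rose by 1.10 under the FAM60A knockdown (adjusted p = 2.38e-06) and by 1.01 under the SDS3 knockdown (adjusted p = 1.76e-05). BLVRB, a biliverdin reductase, fell by 0.28 and 0.46 (adjusted p = 0.00808 and 0.000379), with the first call lost under poly-A scaling (adjusted p = 0.0506, range over its alternatives 0.000211 to 0.135). That first call was also lost with spike-in scaling (adjusted p = 0.135). ABCB6, a porphyrin transporter, fell by 0.64 under the SDS3 knockdown (adjusted p = 0.00124), and SLC40A1, the iron exporter ferroportin, fell by 0.50 (adjusted p = 0.00324). TFRC, the transferrin receptor, fell by 0.23 under the FAM60A knockdown (adjusted p = 0.0278), a call lost under poly-A scaling (adjusted p = 0.105, range over its alternatives 0.00215 to 0.294) and without any 1 of 5 arrays (control replicates 1 to 3, knockdown replicates 2 and 3), with adjusted p of 0.0508 to 0.101. The TFRC call was also lost with spike-in scaling (adjusted p = 0.294) and with a block for replicate number (adjusted p = 0.0651).

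Of 19 other detoxification genes of the NRF2 response, 15 were lower and 1 higher under the SDS3 knockdown, with a median change of -0.43. Under the FAM60A knockdown 5 were lower and 2 higher, with a median of -0.061. All tested genes had 16.6% lower, 13.5% higher and a median of 0.0064 under the SDS3 knockdown. Under the FAM60A knockdown these were 15.2%, 17.4% and -0.023. The 15 lower became 12 to 14 when 1 array was left out. The count stayed 15 with spike-in and poly-A scaling, where 19.7% and 44.2% of all genes were lower. The 5 lower under the FAM60A knockdown became 4 without any 1 of the 6 arrays. They became 3 with spike-in scaling and 4 with poly-A scaling, where 8.15% and 10.4% of all genes were lower. Among the falls under the SDS3 knockdown were ABCG2, a drug efflux pump, at -1.58 (adjusted p = 9.91e-06), and CYP4F11, a fatty acid hydroxylase, at -1.21 (adjusted p = 0.000121). ALDH3A1, an aldehyde dehydrogenase, fell by 1.06 (adjusted p = 0.000172) and AKR1C3, a ketosteroid reductase, by 0.86 (adjusted p = 2.66e-05). AKR1C3 has near-identical relatives on the array, so its signal may include theirs. The relatives AKR1C1 (-0.42) and AKR1C2 (-0.38) are also among the 15, and also had a lower response in the difference between knockdowns. Genes that share signal in this way do not count as separate evidence in either count. The exporters ABCC3 and ABCC2 had opposite signs in the knockdowns: ABCC3 changed by 0.63 under FAM60A siRNA and -0.43 under SDS3 siRNA (adjusted p = 6.21e-05 and 0.0153). ABCC2 changed by 0.35 and -0.79 (adjusted p = 0.0045 and 0.000181), with the first of these lost under poly-A scaling (adjusted p = 0.274, range over its alternatives 0.000372 to 0.274).

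The 13 glutathione and thioredoxin genes tested held no gene that was higher in either knockdown by limma's test. At an unadjusted p under 0.05, 1 gene was higher under the FAM60A knockdown (SLC3A2, named after its value was seen) and 0 under the SDS3 knockdown. Under the FAM60A knockdown 7 were lower, with a median of -0.22, and under the SDS3 knockdown 9 were lower, with a median of -0.30. Over all tested genes these were 15.2% lower with a median of -0.023, and 16.6% lower with a median of 0.0064. Leaving out 1 array gave 5 to 7 lower under the FAM60A knockdown and 7 to 8 under the SDS3 knockdown. With spike-in and poly-A scaling the 7 became 5 each time, where 8.15% and 10.4% of all genes were lower. The 9 became 9 and 13 with those scalings, where 19.7% and 44.2% of all genes were lower. GCLC, the catalytic subunit of the rate-limiting enzyme of glutathione synthesis, fell by 0.71 in the FAM60A experiment and 0.72 in the SDS3 experiment (adjusted p = 4.07e-05 and 7.11e-05). SRXN1, which repairs oxidised peroxiredoxins, fell by 0.62 and 0.88 (adjusted p = 8.03e-05 and 4.46e-05). OSGIN1, a growth inhibitor induced by oxidative stress, fell by 0.70 and 0.85 (adjusted p = 0.000188 and 7.75e-05). GCLM, the modifier subunit of the same glutathione enzyme, fell by 0.52 under the FAM60A knockdown (adjusted p = 0.000392). SLC7A11, which imports cystine, and GPX2, a glutathione peroxidase, fell by 1.01 and 1.41 under the SDS3 knockdown (adjusted p = 1.79e-05 and 4.81e-05).

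**Figure D2:**
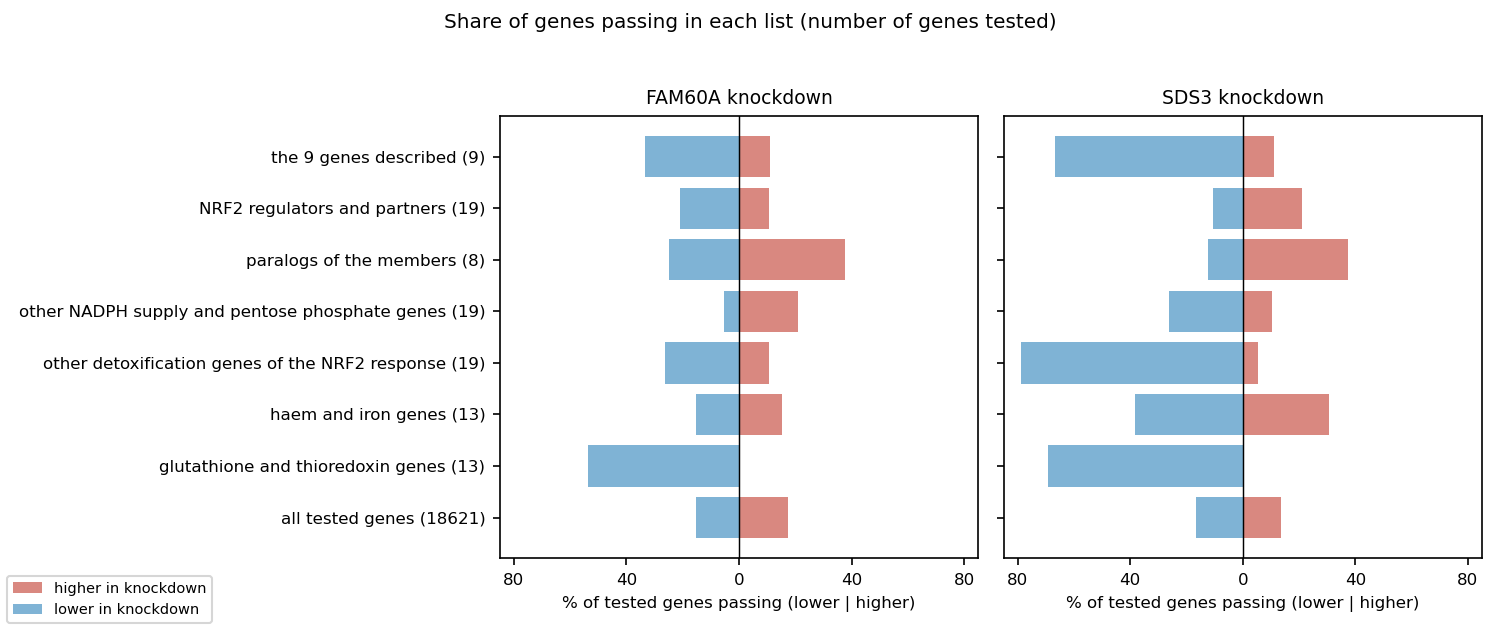
Share of tested genes (%) that passed limma's test, lower to the left and higher to the right of 0, for the 9 genes and 6 lists of related genes, with all 18621 tested genes as the lowest bar. Under the SDS3 knockdown the bars of detoxification genes (15 of 19 lower) and of glutathione genes (9 of 13 lower) reach furthest to the left among the bars drawn.

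The paralogs of the 9 genes give a view of the closest relatives that are measured. NQO2, a quinone reductase related to NQO1, read 11.49, 11.49 and 11.52 on the FAM60A siRNA arrays, against 12.31, 12.42 and 12.24 on their control arrays. It read 10.33, 10.37 and 10.37 on the SDS3 siRNA arrays, against 11.15, 10.99 and 10.94 on their control arrays. All knockdown arrays were lower, with changes of -0.82 and -0.67 (adjusted p = 1.27e-05 and 0.0002). HMOX2, the haem oxygenase that is not inducible, read 10.85, 10.93 and 10.76 on the FAM60A siRNA arrays, against 10.25, 10.30 and 10.23 on their control arrays. It read 10.25, 10.27 and 10.15 on the SDS3 siRNA arrays, against 9.72, 9.76 and 9.71 on their control arrays. It was higher on all knockdown arrays, with changes of 0.59 and 0.49 (adjusted p = 0.00011 and 0.000466), and its SDS3 change under poly-A scaling was 0.17 (adjusted p = 0.311, range over its alternatives 9.36e-06 to 0.311). So both haem oxygenase genes had higher signal in both knockdowns relative to the bulk of the array, with the SDS3 calls of both lost under that scaling.

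EPHX2, the soluble epoxide hydrolase, changed by 0.32 under the FAM60A knockdown (adjusted p = 0.00353) and by -0.10 under the SDS3 knockdown (adjusted p = 0.413). ME3, a mitochondrial malic enzyme, changed by 0.35 and -0.034 (adjusted p = 0.00516 and 0.731). Both rises in the FAM60A experiment were lost under poly-A scaling (EPHX2, adjusted p = 0.333, range over its alternatives 0.00133 to 0.333; ME3, adjusted p = 0.267, range over its alternatives 0.000845 to 0.267). ME2, the other mitochondrial malic enzyme, changed by 0.079 and 0.27 (adjusted p = 0.367 and 0.0148), and its SDS3 change was -0.057 under that scaling (adjusted p = 0.735, range over its alternatives 0.00118 to 0.735) and lost its call without control replicate 3 (adjusted p = 0.0515). With spike-in scaling the ME2 call was lost too (adjusted p = 0.110). TKTL1, a transketolase-like gene, had changes of -0.016 and -0.035, and neither passed, while TKTL2 did not reach the signal filter.

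ME1 encodes the cytosolic malic enzyme, which makes NADPH while turning malate to pyruvate. Its brightest probe set, 204059_s_at, read 12.97, 12.94 and 13.02 on the FAM60A siRNA arrays, against 13.41, 13.30 and 13.39 on their control arrays. It read 11.52, 11.47 and 11.61 on the SDS3 siRNA arrays, against 12.11, 12.09 and 12.09 on their control arrays. All knockdown arrays were lower than all controls in both experiments. The signal fell to 76.2% of control under the FAM60A knockdown (log2 change -0.39, SE 0.0601, adjusted p = 0.000857) and to 67.9% under the SDS3 knockdown (log2 change -0.56, SE 0.0592, adjusted p = 0.000245). The probe set 204058_at fell to 69.4% and 70.4% (adjusted p = 0.000921 and 0.00109). The third, 211204_at, changed by -0.11 and 0.070 and did not pass (adjusted p = 0.216 and 0.707).

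PGD encodes 6-phosphogluconate dehydrogenase, an NADPH-making enzyme of the oxidative pentose phosphate branch. Its brightest probe set, 201118_at, read 13.57, 13.50 and 13.55 on the SDS3 siRNA arrays, against 14.01, 13.93 and 13.94 on their control arrays. The groups lie apart, and the signal fell to 75% of control (log2 change -0.41, SE 0.0563, adjusted p = 0.00091). The FAM60A experiment gave 14.57, 14.51 and 14.53 on the FAM60A siRNA arrays, against 14.67, 14.64 and 14.65 on their control arrays. These arrays do not overlap either, but the change of -0.12 did not pass (adjusted p = 0.158). The signal of this probe set lay 0.755 to 1.66 (log2) below the highest value of its array. It lay nearer to it in the FAM60A experiment. Control means were 14.65 there and 13.96 in the SDS3 experiment, where the highest values of control arrays were 15.39 to 15.43 and 15.13 to 15.14. The part of narrowing near the highest signal in the PGD difference between knockdowns was not tested. Of the dimmer PGD probe sets, 1560942_at fell by 0.24 under the FAM60A knockdown (adjusted p = 0.0101), a call lost under poly-A scaling (adjusted p = 0.0907, range over its alternatives 0.00452 to 0.253), and changed by 0.0096 under the SDS3 knockdown. Its FAM60A call was also lost with spike-in scaling (adjusted p = 0.253). The other, 1560943_s_at, changed by -0.031 and 0.0069, and neither passed. On the SDS3 siRNA arrays 1560942_at and 1560943_s_at averaged only 6.51 and 6.41, at the dim end where changes are narrowed.

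TALDO1 encodes transaldolase, which links the non-oxidative pentose phosphate branch to glycolysis. Its single probe set, 201463_s_at, read 13.73, 13.68 and 13.69 on the FAM60A siRNA arrays, against 13.65, 13.69 and 13.70 on their control arrays. It read 13.13, 13.12 and 13.16 on the SDS3 siRNA arrays, against 13.36, 13.25 and 13.25 on their control arrays. The FAM60A groups overlap, and the SDS3 siRNA arrays lie below their controls. Neither change passed, at 0.021 and -0.15 (adjusted p = 0.831 and 0.105). Under poly-A scaling the SDS3 change was -0.47 and passed (adjusted p = 0.0075, range over its alternatives 0.00658 to 0.239).

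TKT encodes transketolase, another enzyme of that branch, and its 3 probe sets gave different values. The brightest, 208700_s_at, read 14.42, 14.38 and 14.33 on the FAM60A siRNA arrays, against 14.32, 14.27 and 14.35 on their control arrays. It read 13.77, 13.87 and 13.83 on the SDS3 siRNA arrays, against 13.96, 14.00 and 14.02 on their control arrays. The changes were 0.065 and -0.17 (adjusted p = 0.474 and 0.0626), so neither passed, though the SDS3 arrays do not overlap. The probe set 208699_x_at gave 0.039 and -0.17 (adjusted p = 0.666 and 0.0515). The signal of 208700_s_at lay 0.940 to 1.37 (log2) below the highest value of its array, and that of 208699_x_at 1.03 to 1.98 below. In the SDS3 experiment both did not pass as deposited. There 208700_s_at passed under 7 of its 17 alternatives and 208699_x_at under 8 of its 16, and neither passed when an array was left out.

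The third TKT probe set, 228205_at, fell by far more. It read 11.00, 10.96 and 10.96 on the FAM60A siRNA arrays, against 11.76, 11.83 and 11.77 on their control arrays. It read 8.11, 8.24 and 8.14 on the SDS3 siRNA arrays, against 9.99, 9.77 and 9.72 on their control arrays. The groups lie far apart in both experiments, and the signal of this probe set lay 3.56 to 7.03 (log2) below the highest value of its array. The signal fell to 56.8% of control under the FAM60A knockdown (log2 change -0.81, SE 0.0571, adjusted p = 6.52e-06) and to 31.5% under the SDS3 knockdown (log2 change -1.66, SE 0.0807, adjusted p = 6.06e-06), the largest change among the 19 probe sets in the SDS3 comparison. Where on the gene each probe set lies was not examined here, and the 3 give no single value for TKT.

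**Figure D3:**
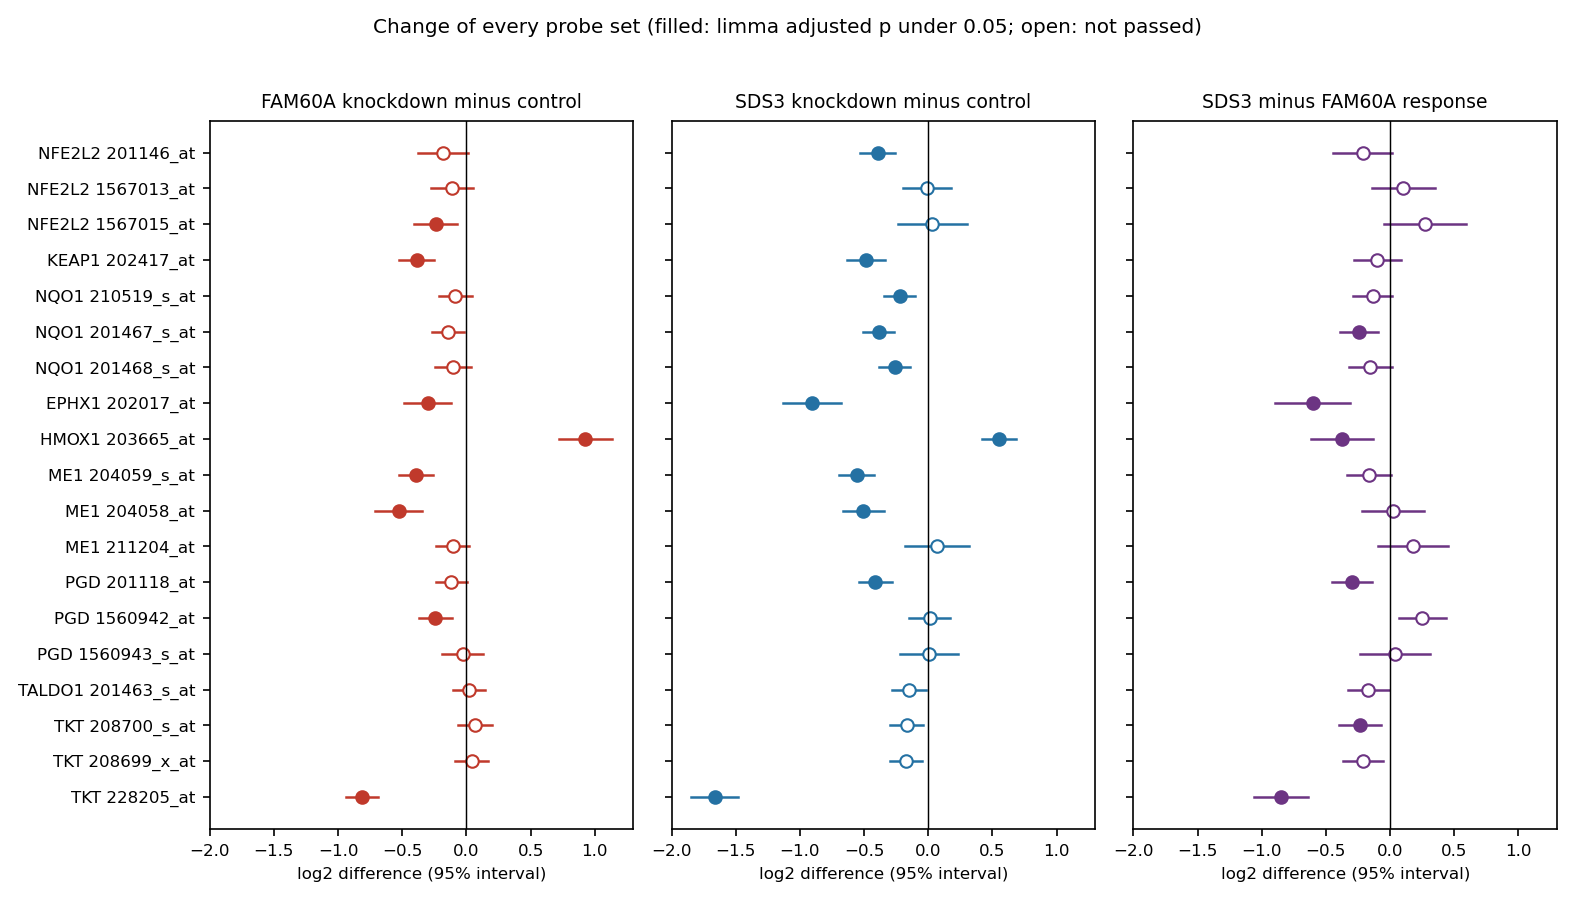
Log2 difference (x axis) with 95% interval for each of the 19 probe sets, in the FAM60A and SDS3 comparisons with their controls and for the difference between knockdowns; filled points passed limma's test. HMOX1 is the only filled point above 0 in both knockdown panels, and TKT 228205_at lies furthest below 0.

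Of 19 other NADPH-supply and pentose phosphate genes tested, 4 were higher and 1 lower under the FAM60A knockdown, and 2 were higher and 5 lower under the SDS3 knockdown. Their median changes were 0.044 and -0.035, against -0.023 and 0.0064 over all genes, of which 17.4% were higher and 15.2% lower under the FAM60A knockdown and 13.5% higher and 16.6% lower under the SDS3 knockdown. The 4 higher under the FAM60A knockdown became 1 under poly-A scaling. The 2 higher under the SDS3 knockdown became 1 without any 1 of 5 arrays (control replicates 2 and 3, knockdown replicates 1 to 3) and 0 with spike-in or poly-A scaling. Under poly-A scaling 6.59% of all genes were higher in the FAM60A comparison. In the SDS3 comparison 7.74% were higher with spike-in and 2.44% with poly-A scaling. RPIA, ribose 5-phosphate isomerase of the non-oxidative branch, read 9.35, 9.17 and 9.44 on the SDS3 siRNA arrays, against 10.52, 10.54 and 10.52 on their control arrays, a fall of 1.21 without overlap (adjusted p = 1.82e-05). Its change under the FAM60A knockdown was -0.12 and did not pass (adjusted p = 0.153). H6PD, which makes NADPH in the endoplasmic reticulum, fell by 0.40 under the SDS3 knockdown (adjusted p = 0.00306). SHPK, a sedoheptulose kinase, fell by 0.45 under the FAM60A knockdown (adjusted p = 0.000351). IDH2 and PGLS, a mitochondrial isocitrate dehydrogenase and a lactonase of the oxidative branch, rose there by 0.43 and 0.39 (adjusted p = 0.00113 and 0.000659), both lost under poly-A scaling (IDH2, adjusted p = 0.116, range over its alternatives 5.25e-05 to 0.116; PGLS, adjusted p = 0.176, range over its alternatives 2.33e-05 to 0.176).

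NNT, the mitochondrial transhydrogenase that makes NADPH from NADH, passed in both knockdowns with opposite signs. It read 9.11, 9.16 and 8.93 on the FAM60A siRNA arrays, against 8.54, 8.32 and 8.63 on their control arrays. It read 8.20, 8.29 and 8.40 on the SDS3 siRNA arrays, against 8.73, 8.81 and 8.83 on their control arrays. All FAM60A siRNA arrays lie above and all SDS3 siRNA arrays below their controls. The changes were 0.57 (adjusted p = 0.00112) and -0.49 (adjusted p = 0.00106), with a difference of -1.06 (adjusted p = 4.65e-05).

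The difference between the knockdowns was tested as the SDS3 change minus the FAM60A change over all 12 arrays. Of the 19 probe sets, 6 had a lower response to SDS3 siRNA, none a higher one, and 13 did not pass (limma), where 10.6% of all tested probe sets were lower and 6.28% higher. At an unadjusted p under 0.05, 1 probe set was higher, PGD 1560942_at, with a difference of 0.25 (adjusted p = 0.0632). The median difference of the 19 was -0.17, against 0.015 over all probe sets. By brightest probe set, 4 of the 9 genes were lower and none higher, where 13.5% of genes were lower and 7.87% higher. EPHX1 differed by -0.60 (95% interval -0.90 to -0.31, adjusted p = 0.00746) and PGD 201118_at by -0.30 (-0.45 to -0.14, adjusted p = 0.0117), and the PGD call was lost under poly-A scaling (adjusted p = 0.0911, range over its alternatives 5.85e-05 to 0.0911). TKT 228205_at differed by -0.85 (-1.06 to -0.64, adjusted p = 5.13e-05). HMOX1 differed by -0.38 (-0.62 to -0.13, adjusted p = 0.0346), which is the smaller rise under SDS3 siRNA.

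Of these, the EPHX1, PGD 201118_at and TKT 228205_at differences passed without any single array. The HMOX1 call was lost without any 1 of 8 arrays (adjusted p 0.0586 to 0.0868), namely control replicates 1 and 3 and knockdown replicates 1 and 3 of the FAM60A experiment and control replicates 2 and 3 and knockdown replicates 1 and 3 of the SDS3 experiment. NQO1 201467_s_at differed by -0.24 (adjusted p = 0.0258), which did not pass under poly-A scaling (adjusted p = 0.145, range over its alternatives 0.000296 to 0.145) or without any 1 of 7 arrays (0.0510 to 0.0569). Those were control replicate 3 and knockdown replicates 2 and 3 of the FAM60A experiment and control replicates 2 and 3 and knockdown replicates 1 and 2 of the SDS3 experiment. TKT 208700_s_at differed by -0.23 (adjusted p = 0.0497), a call lost without any 1 of the 12 arrays (0.0536 to 0.117) and under poly-A scaling (adjusted p = 0.155, range over its alternatives 0.00163 to 0.155). NFE2L2 201146_at differed by -0.21 with an interval of -0.44 to 0.018, and ME1 204059_s_at by -0.17 with an interval of -0.34 to 0.0049, and neither passed (adjusted p = 0.206 and 0.181). Each knockdown was a separate experiment with its own controls, so knockdown and experiment cannot be told apart.

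Among the other lists, 12 of 19 detoxification genes and 7 of 19 NADPH-supply genes had a lower response to SDS3 siRNA, and 1 of each a higher one. Over all tested genes 13.5% had a lower response and 7.87% a higher one. The 1 higher NADPH-supply gene became 0 without control replicate 2 or knockdown replicate 2 of the FAM60A experiment or control replicate 3 or knockdown replicate 1 of the SDS3 experiment, and 2 without FAM60A knockdown replicate 3 or SDS3 control replicate 1. ABCG2 differed by -1.29 (adjusted p = 3.27e-06), RPIA by -1.09 (adjusted p = 4.43e-06), ABCC3 by -1.06 (adjusted p = 6.03e-05), and GPX2 by -1.16 (adjusted p = 0.000121). The glutathione and thioredoxin genes had 4 of 13 lower and none higher. At limma's unadjusted p under 0.05, 2 of them were higher (GCLM and PRDX1, the latter named after its value was seen). The regulators and partners had 3 of 19 lower and 2 higher, and the tested paralogs 2 of 8 lower and 1 higher. The haem and iron genes had 2 of 13 lower and 0 higher. Leaving out replicates gave 11 to 13 lower detoxification, 5 to 7 NADPH-supply and 3 to 5 glutathione genes. Under poly-A scaling these were 10, 4 and 2, with 0 higher in each, where 10.6% of all genes were lower and 0.87% higher. These counts share the arrays of the comparisons above.

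Scaling moved the SDS3 changes more than the FAM60A changes. Scaling to the 24 poly-A control probe sets moved the median of all probe sets by -0.10 in the FAM60A comparison and -0.32 in the SDS3 comparison, and scaling to 18 hybridisation spike-ins moved it by 0.059 and -0.078. Under the poly-A scaling 39.6% of calls over all probe sets were higher in the FAM60A comparison and 4.35% in the SDS3 comparison, against 55.0% and 45.6% as deposited. With spike-ins these shares were 70.8% and 27.6%. Under the poly-A scaling 44.2% of all 18621 tested genes were lower and 2.44% higher in the SDS3 comparison. Beside that, 10 of 19 regulators and partners were lower, 12 of 19 other NADPH-supply genes, 15 of 19 detoxification genes, 13 of 13 glutathione and thioredoxin genes, 8 of 13 haem and iron genes and 4 of 8 tested paralogs. Of these lists, the haem and iron genes had 1 gene higher and the others none. KEAP1, EPHX1 202017_at, ME1 204059_s_at and TKT 228205_at were lower in both knockdowns under both scalings, except that EPHX1 did not pass with spike-ins in the FAM60A comparison. The 18S ribosomal RNA probe sets also read higher on knockdown arrays, by 0.28 and 0.53 (exact permutation p = 0.1 each), and the part of RNA composition in these results was not tested. The ACTB 3′ minus 5′ control signal, a measure of RNA quality, averaged -0.0051 on the FAM60A siRNA arrays against 0.089 on their controls (difference -0.094, no overlap, exact permutation p = 0.1, the smallest possible). In the SDS3 experiment the difference was -0.013 (exact permutation p = 0.7). The same measure for GAPDH differed by 0.00072 and 0.0048 (exact permutation p = 1 each), and the part of RNA quality in these results was not tested.

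**Figure D4:**
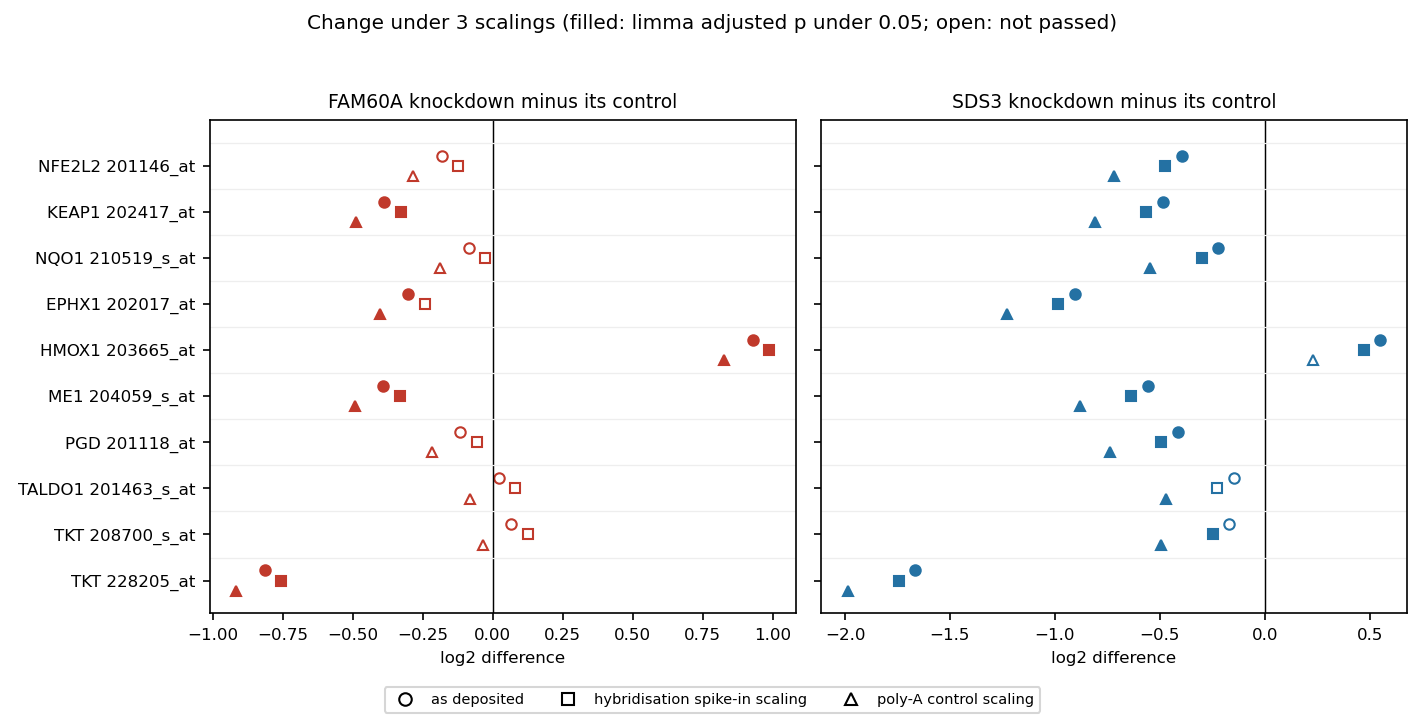
Log2 difference (x axis) of 10 probe sets under the deposited scaling (circles), hybridisation spike-in scaling (squares) and poly-A control scaling (triangles), filled where limma's adjusted p was under 0.05. In the SDS3 panel poly-A points lie 0.32 to the left of the deposited ones, and HMOX1 is the 1 filled circle whose triangle is open.

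For the probe set with the largest passing change in each knockdown, the genes with the most alike pattern were sought by root mean square distance of control-centred log2 values over 12 arrays. For HMOX1 these were NMRK1 (0.0772), LINC00842 (0.0794) and CCDC9B (0.0857). NMRK1, a nicotinamide riboside kinase, had changes of 0.89 under FAM60A siRNA and 0.57 under SDS3 siRNA. For TKT 228205_at they were KLF4 (0.122), NCR3LG1 (0.129) and PLS1 (0.135). KLF4, a zinc-finger transcription factor, had changes of -0.96 and -1.59. The distance is a description and has no test.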

How the data were processed

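RNA of 12 A549 samples was measured on 1-colour Affymetrix arrays. Values in the deposited table are RMA intensity, linear in scale. RMA is named by the submitters' processing notes, and neither its version and settings nor a joint normalization of the 12 arrays is stated there. The median signals, 186.01 to 192.6 in the FAM60A experiment and 96.8 to 98.3 in the SDS3 experiment, show that the 12 arrays do not share 1 distribution. The method forces arrays normalized together to 1 distribution, which hides a shift common to most RNAs, and compresses changes at the dim and bright ends. The log2 of each value was taken (the design had assumed log2 values). Probe sets were named through GEO's platform annotation (41097 with 1 symbol, 1801 with several, 11777 with none listed), with symbols updated through Entrez identifiers in RefSeq's GRCh38.p14 table (41043 matched). The test covered 48347 probe sets, those that reached log2 5 on 3 or more of the 12 arrays. A gene was its brightest probe set.

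limma 3.58.1 (R 4.3.3) fitted each knockdown against its own controls on 6 arrays and the difference between knockdowns on 12 (lmFit and eBayes, Benjamini-Hochberg over every tested probe set, threshold 0.05). Every adjusted p is from limma. The fits were tested on simulated data. The members, the gene lists and the poly-A scaling were chosen with earlier results of these data known. The text names the 9 genes with all their probe sets, both targets, all paralogs, up to 4 genes of each list with the largest passing change per knockdown, and 3 genes of most alike pattern per knockdown. Replicates sharing a number did not deviate together (correlations -0.14 to 0.019), so no pairing was used. The number of arrays limits the precision.

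The alternatives were other filters (none, or log2 7), brightest probe sets only, median centring, quantile normalization, hybridisation spike-in and poly-A scaling, a single fit of all arrays, array weights, a robust variance trend, leaving out each replicate, a replicate block, and stricter thresholds.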

Additional observations from a re-analysis of the deposited data

Results flagged for a closer look

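These probe sets are listed because their SDS3 change and FAM60A change differed by the test of the difference itself (limma over 12 arrays, log2 SDS3 change minus FAM60A change). EPHX1 202017_at differed by -0.60, TKT 228205_at by -0.85, PGD 201118_at by -0.30, NQO1 201467_s_at by -0.24 and TKT 208700_s_at by -0.23. HMOX1 203665_at differed by -0.38, with a rise of 0.93 under the FAM60A knockdown and of 0.55 under the SDS3 knockdown. The knockdowns were separate experiments, and the remaining SINHCAF signal (15.5% of control) and SUDS3 signal (33.4% of control) were not the same, so the part of knockdown depth in these differences was not tested.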

How the results depend on the processing

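Over all alternatives and comparisons, 912 of 1031 changes of the 9 genes' probe sets kept their direction and their side of the threshold, 50 lost the call, 31 gained it and 38 reversed in sign. No reversal touched a passing change. Of 731 changes of named list genes, 702 kept both, 27 lost the call and 2 reversed, both under poly-A scaling in the SDS3 comparison, CREBBP to -0.028 and ME2 to -0.057. Where no value shows otherwise, the cause was not tested.

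Of probe sets lower under the FAM60A knockdown (7 as reported), 3 were counted with brightest probe sets only (fewer are tested), 4 passed with spike-in scaling, 4 at an adjusted p of 0.01 and 1 at 1.5-fold. Leaving out replicates gave 5 to 7. Poly-A scaling ended the calls of NFE2L2 1567015_at and PGD 1560942_at there, and the variance trend added NQO1 201467_s_at and PGD 201118_at. With spike-in scaling 3072 of all probe sets were lower in that comparison, against 5840 as deposited. Under poly-A scaling 950 of all probe sets were higher in the SDS3 comparison, against 5334. In the difference 4393 were lower under that scaling, against 5115. Under the SDS3 knockdown the 1 higher became 0 at 1.5-fold and 0 with poly-A scaling, and the 10 lower became 2 at 1.5-fold. The lower count rose with a filter at log2 7, spike-in or poly-A scaling, a single fit of all arrays, array weights or the variance trend. TKT 208700_s_at and 208699_x_at then passed as lower too. TALDO1 201463_s_at joined them with poly-A scaling and with the trend. For the difference, 1 higher (PGD 1560942_at) appeared with a filter at log2 7 and with array weights, and 0 to 1 when replicates were left out. The 6 lower became 10 with the variance trend, 3 with the replicate block, 2 at an adjusted p of 0.01, 2 at 1.5-fold, 3 with poly-A scaling and 3 to 5 when replicates were left out. The block ended the difference calls of HMOX1 (adjusted p = 0.0667), NQO1 201467_s_at (0.0949) and TKT 208700_s_at (0.118), and changed no call of the 9 genes within a knockdown.

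Signs reversed with spike-in scaling in the FAM60A comparison for PGD 1560943_s_at (0.028), and in the SDS3 comparison for PGD 1560942_at (-0.068), PGD 1560943_s_at (-0.071), NFE2L2 1567015_at (-0.047) and ME1 211204_at (-0.0079). In the difference they reversed for PGD 1560943_s_at (-0.099), NFE2L2 1567013_at (-0.033) and ME1 204058_at (-0.12). With poly-A scaling they reversed in the FAM60A comparison for TALDO1 201463_s_at (-0.080), TKT 208699_x_at (-0.062) and TKT 208700_s_at (-0.036). In the SDS3 comparison they reversed for PGD 1560942_at (-0.31), PGD 1560943_s_at (-0.32), NFE2L2 1567015_at (-0.29) and ME1 211204_at (-0.25). In the difference they reversed for PGD 1560943_s_at (-0.18), NFE2L2 1567013_at (-0.12), ME1 204058_at (-0.20) and ME1 211204_at (-0.045).

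Without single replicates, PGD 1560943_s_at ranged from -0.081 to 0.013 in the FAM60A comparison, -0.088 to 0.074 in the SDS3 comparison and -0.057 to 0.10 in the difference. In the SDS3 comparison PGD 1560942_at ranged from -0.042 to 0.065, NFE2L2 1567013_at from -0.080 to 0.069, NFE2L2 1567015_at from -0.054 to 0.16 and ME1 211204_at from -0.040 to 0.17. ME1 204058_at ranged from -0.049 to 0.10 in the difference. NQO1 210519_s_at, PGD 201118_at and TKT 208700_s_at lie near the highest signal of the array, where changes are narrowed, and the arrays give no background signal to set a lower limit.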
